A study of Mus musculus with 30 samples.

Results

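The genes described here are 42 components of the endoplasmic reticulum (ER) machinery that folds secreted proteins and disposes of those that fail to fold. They were chosen by symbol, as genes linked to the transcription factors ATF6 and XBP1, with earlier results of these data known. All 42 were found among the 39017 genes of the count table, and all 42 were among the 15627 genes left to test after the filter on low counts. By role they were 10 chaperones and cochaperones, 9 disulfide isomerases and thioredoxin-like proteins, 3 genes of the lectin chaperone cycle, 6 of the translocon and signal peptidase, 10 of ER-associated degradation, and 4 stress sensors or transcription factors.

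Polyadenylated RNA was sequenced from 5 lines of βTC3, an insulin-producing mouse insulinoma cell line. The lines were a control (PB-33), a line labelled as expressing ALK7 (PB-33 ALK7), a line with ALK7-DN, the dominant negative form (PB-33 ALK7-DN), and the knock-down lines sh2 (PB-31 ALK7-sh2) and sh1/2 (PB-31 ALK7-sh1/2). ALK7 is the type I receptor encoded by Acvr1c, and activin B is one of its ligands. All cells, the control included, received doxycycline (DOX) at 1 µg/ml for 24 hours, and in 1 of the 2 groups of each line activin B was given too, at 50 ng/ml for 24 hours. Each of the 10 groups had 3 libraries, from wells of a culture plate, so p-values measure the spread between wells, which may be technical. The knock-down lines have another plasmid name than the control, and a PB-31 line without a hairpin is not analysed here. Batch 2, by the labels, held the activin B group of the ALK7-DN line and the DOX group of sh2, and batch 1 held the rest, so that batch and treatment cannot be told apart within these 2 lines.

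Proteins bound for secretion enter the ER through the SEC61 translocon, lose their signal peptide to signal peptidase, fold with the help of chaperones such as BiP (Hspa5) and receive disulfide bonds from protein disulfide isomerases. Glycoproteins pass through a cycle of calnexin and calreticulin, and proteins that stay misfolded are drawn back out and degraded. When unfolded proteins build up, the sensors IRE1 (Ern1), ATF6 and PERK start the unfolded protein response, in which XBP1 and ATF6 raise the transcription of many genes of this machinery. Beta cells make large amounts of proinsulin, a protein with disulfide bonds, and depend on it.

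Promoters of such genes are known for ER stress response elements, and the stretches that hold one are shown here because the members were chosen for their link to ATF6 and XBP1. RefSeq promoter windows (GRCm38.p6, 250 bases before to 50 after each start) matched 35 of the 42 members. They were searched on both strands for the element ERSE (CCAAT, then 9 bases of any kind, then CCACG), for ERSE-II (ATTGG, then 1 base of any kind, then CCACG) and for the element UPRE (TGACGTGG). ERSE was found in 9 of the 35 members (25.7%) and in 0.119% of all 32851 windows: Hspa5, Hsp90b1, Dnajc3, Creld2, Pdia6, Calr, Canx, Syvn1 and Derl3. ERSE-II was found in Dnajb11 and Herpud1 and in 0.0365% of all windows, and UPRE in Txndc5 and Txndc11 and in 0.676% of all windows. The core CCACG, which is part of both ERSE forms, stood in 29 of the 35 members (82.9%) and in 32.8% of all windows. Because of that choice, the shares only describe the set and support nothing else. They also have unlike units, as members are counted per gene over their 40 windows and the background per window. A match of letters is not a shown binding site.

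The stretch of Hspa5 (chr2:34772020-34772048, plus strand) is the site alone with 5 bases on either side, and that of Pdia6 (chr12:17266339-17266544, plus strand), the member with the largest mean fall, is longer. Shorter stretches are shown for Calr (chr8:84847060-84847108, minus strand), Creld2 (chr15:88819505-88819553, plus strand) and Derl3 (chr10:75893227-75893275, plus strand), where the element lies in the opposite orientation, and for Syvn1 (chr19:6046517-6046565, plus strand). Herpud1 (chr8:94386362-94386402, plus strand) is shown for its ERSE-II, because it was called lower in no line. All are written 5′ to 3′ on the strand of the gene, and capitals mark the fixed letters of the element.
Hspa5: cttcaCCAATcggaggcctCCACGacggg
Pdia6: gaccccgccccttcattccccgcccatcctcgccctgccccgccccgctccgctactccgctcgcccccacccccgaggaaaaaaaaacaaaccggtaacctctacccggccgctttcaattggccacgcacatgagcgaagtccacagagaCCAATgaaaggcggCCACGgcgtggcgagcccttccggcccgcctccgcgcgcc
Calr: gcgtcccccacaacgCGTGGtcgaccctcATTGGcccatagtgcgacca
Creld2: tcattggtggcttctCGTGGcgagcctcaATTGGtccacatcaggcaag
Derl3: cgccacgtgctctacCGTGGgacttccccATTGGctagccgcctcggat
Syvn1: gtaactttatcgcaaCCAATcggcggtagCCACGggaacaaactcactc
Herpud1: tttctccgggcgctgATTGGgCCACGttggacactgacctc
The 11 members with ERSE or ERSE-II had a median log2 fold change with activin B of -0.48 (range -1.10 to -0.03) as a mean of the 3 lines with all libraries in batch 1. The 24 matched members without them had a median of -0.38 (range -0.98 to 0.26), and the ranges overlapped widely.

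Library totals ran from 18904884 to 34740789 counts. Acvr1c, the targeted gene, is given in CPM, its counts scaled to library size, as a check of the labels. Under DOX alone it stood at 167, 158 and 170 CPM in the control, at 55.6, 68.7 and 81.3 in sh2 and at 60.0, 46.1 and 59.9 in sh1/2, all libraries of the knock-down lines below those of the control. The log2 fold change against the control was -1.58 ± 0.11 (SE) for sh1/2 under DOX alone (edgeR adjusted p = 4.16e-11) and -1.24 ± 0.11 for sh2 with activin B (edgeR adjusted p = 1.87e-08). In the line labelled ALK7 it was at 163, 142 and 158 CPM and in the line labelled ALK7-DN at 156, 158 and 170, not higher than in the control (edgeR adjusted p = 0.754 and 0.984). The species of these constructs is not given in the sources used here, so both lines are called by their labels throughout. Of 18 beta cell markers none was under 1 CPM in all libraries (summed level 18646 to 30877 CPM with DOX alone, 19770 to 25959 with activin B). Of the other markers, 14 of 16 exocrine and duct genes (summed level 3.14 to 12.9 CPM with DOX alone, 3.15 to 8.84 with activin B), 12 of 13 stromal and endothelial genes (1.66 to 3.40 and 1.41 to 3.67) and 11 of 12 immune genes (2.4 to 4.27 and 2.29 to 4.68) were under 1 CPM.

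Within several groups, libraries differed in how many reads fell on genes rich in G and C. GC content was that of the longest transcript of each gene. The deviation of a library from its group correlated with it, across genes, at -0.48, 0.70 and -0.58 (Spearman) in sh1/2 under DOX alone. In the control with activin B the values were 0.61, -0.67 and 0.43. The 3 libraries with negative values there, which bear on the comparison of sh1/2 with the control, were left out in an added analysis. That fit leaves sh1/2 under DOX alone with replicate 2 only, the library at 0.70. Its values for sh1/2 that involve DOX rest on that library, and the spread of that group cannot be measured there. The fits were also repeated with a correction for this GC content, called the GC correction below. Other lines also held libraries with values down to -0.52.

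Per kilobase of exon, which makes genes comparable, the highest member in the control under DOX alone was Calr, the lectin calreticulin, at 684 ± 29.7 CPM per kb (SD, n = 3). The disulfide isomerase P4hb followed at 420 ± 9.1, the chaperone Hspa5 at 353 ± 7.43 and Hsp90b1, the HSP90 of the ER, at 326 ± 19.3 CPM per kb. The sensors lay far below, with Atf6 at 13.5 ± 0.341 and Ern1 at 12.4 ± 0.203 CPM per kb, and Derl3, a factor of ER-associated degradation, was lowest at 3.11 ± 0.504.

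The first comparison is the response of the ER machinery to activin B within each line, the treatment the series applied to all lines. Most members were lower with activin B in each line. The list was chosen with earlier results of these data known, so its shares beside those of all genes only describe it. A gene was called where the adjusted p of edgeR's quasi-likelihood test, with Benjamini-Hochberg adjustment over all 15627 genes, was under 0.05; adjusted p-values below are from this test. In the control line 35 of the 42 members fell and 1 rose, while 9.66% of all genes tested fell and 10.7% rose. In the line labelled ALK7 35 fell and 1 rose (12.3% and 13% of all genes), in the line labelled ALK7-DN 26 and 1 (7.62% and 8.48%), in sh2 32 and 1 (8.91% and 10.7%), and in sh1/2 30 and 1 (19.1% and 17.5%). The median log2 fold change of the members was -0.39, -0.48, -0.33, -0.35 and -0.31 in the same order. As a mean of the control, ALK7-labelled and sh1/2 lines, all of batch 1, 36 members fell and 1 rose (19.7% and 19.4% of all genes), with a median of -0.39. The member that rose was Ern1 in every line. In a fit with a batch term, which takes the batch effect from the assumption that sh2 and sh1/2 respond alike, 22 members fell and 1 rose in the ALK7-DN-labelled line (12.4% and 13.8% of all genes). The batch effect there is the response of sh1/2 minus that of sh2. That count thus carries the uneven DOX libraries of sh1/2 and does not separate batch from treatment.

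Of the 42 members, 20 fell in all 5 lines (3.54% of all genes tested) and 30 in at least 4 (5.96%). Herpud1 and Ern1 fell in none. With the GC correction 30 members fell in all 5 lines (5.48% of all genes tested) and 34 in at least 4 (8.7%). In that fit 39, 39, 36, 37 and 31 members fell in the 5 lines in the order above (13.5%, 18.2%, 10.7%, 13.9% and 13% of all genes tested). Which lines a member was called in thus depended on this correction for several members, given with each below. The 3 libraries with activin B lay below the 3 with DOX alone, without overlap, for 38 members in the control (15.8% of all genes tested), 39 in the ALK7-labelled line (21.5%), 37 in the ALK7-DN-labelled line (15.9%), 36 in sh2 (19.9%) and 27 in sh1/2 (18.2%). In such bulk samples, fewer cells of a kind and less RNA per cell cannot be told apart.

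**Figure D1:**
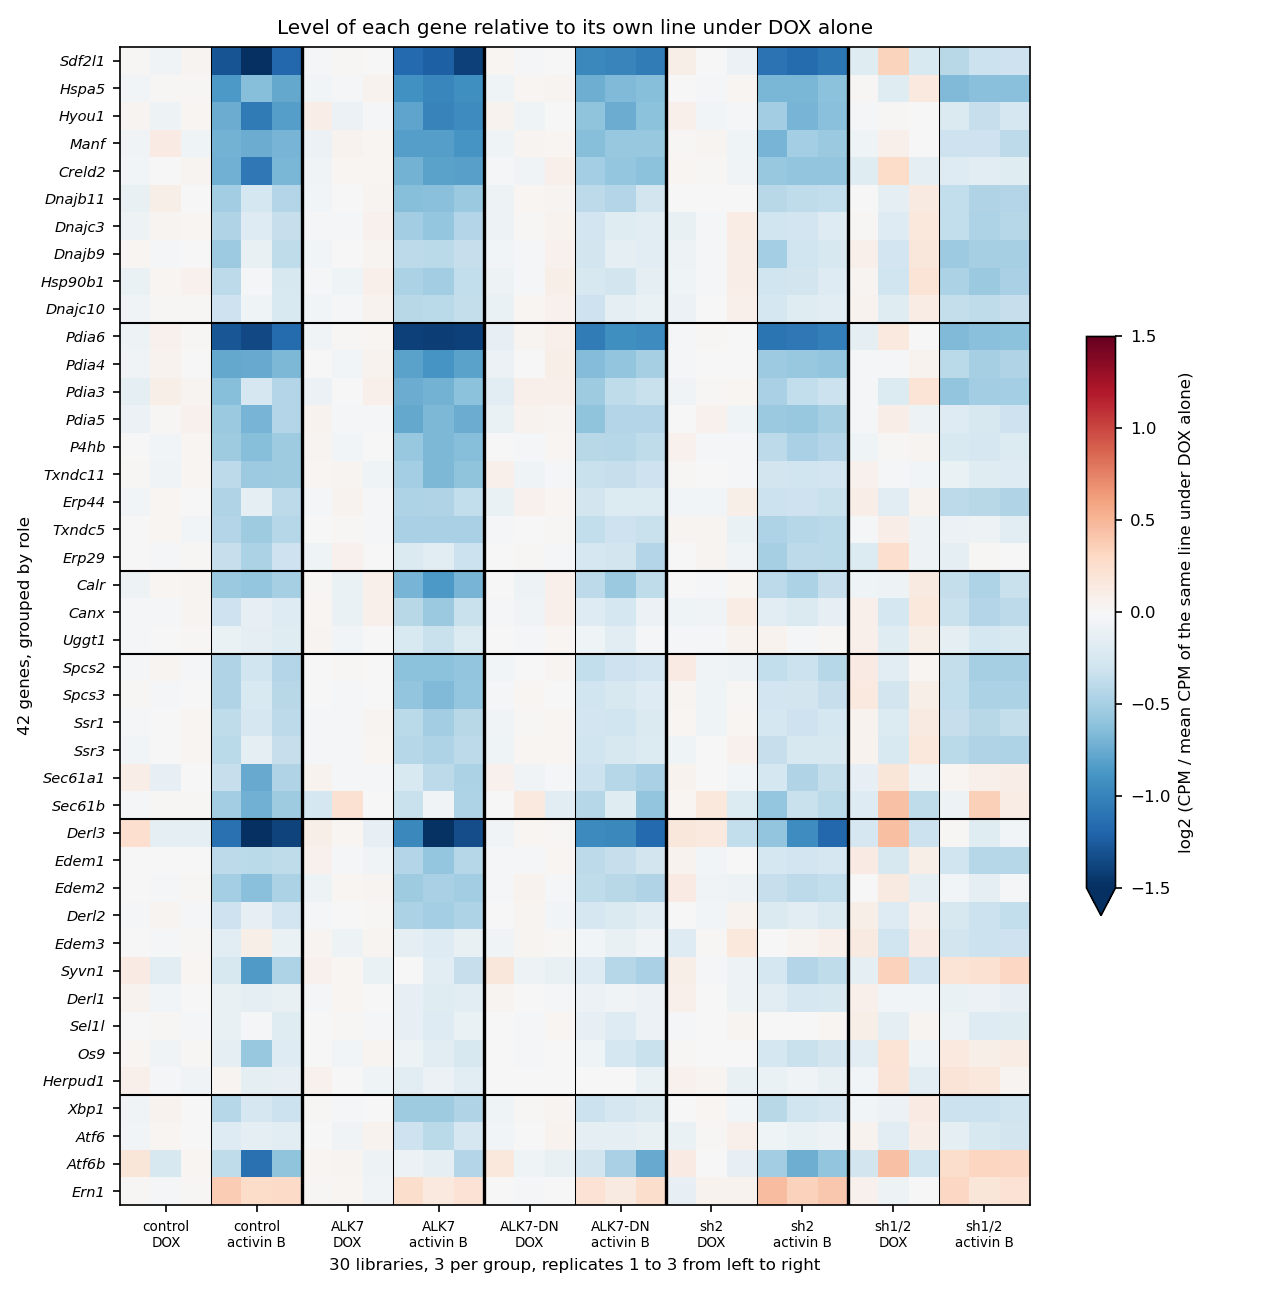
Heat map of the 42 genes (rows, by role) in the 30 libraries (columns), as the log2 ratio of the CPM to the mean of the same line under DOX alone, with blue for lower and red for higher. Most genes are blue in the activin B columns of all 5 lines and Ern1 is red there, and the DOX libraries of sh1/2 differ among themselves.

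Among the chaperones, Hspa5 (ENSMUSG00000026864, chromosome 2, 34771970 to 34777547, plus strand of GRCm38) encodes BiP, the chief HSP70 of the ER lumen. It stood at 1455, 1513 and 1506 CPM in the control under DOX alone and at 821, 956 and 873 with activin B. In the line labelled ALK7 it went from 1536, 1560 and 1633 to 842, 797 and 833 CPM, and in sh1/2 from 1482, 1291 and 1625 to 927, 947 and 948. The groups did not overlap in any of the 5 lines. Its log2 fold change from the control to sh1/2, in the order used above, was -0.76 ± 0.06, -0.94 ± 0.06, -0.68 ± 0.06, -0.66 ± 0.06 and -0.64 ± 0.06 (SE, n = 3 and 3 libraries in each line), with an adjusted p of 6.65e-10 from edgeR in the control.

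Sdf2l1, a partner of the HSP40 cochaperones of BiP, had the largest mean fall among the chaperones (-0.98 ± 0.06). Its libraries were at 88.7, 84.6 and 89.9 CPM in the control under DOX alone and at 35.9, 29.2 and 38.7 with activin B, and in sh1/2 at 63.7, 91.0 and 61.5 and then at 53.9, 57.7 and 58.1. The groups stood far apart in the control, whereas in sh1/2 replicates 1 and 3 under DOX alone lay just above the activin B libraries. The log2 fold changes were -1.34 ± 0.11, -1.26 ± 0.11, -1.0 ± 0.10, -1.11 ± 0.11 and -0.35 ± 0.10 in the same order. The call in sh1/2 (edgeR adjusted p = 0.0114) was lost with only the groups of that line fitted (edgeR adjusted p = 0.168) and without DOX replicate 2, where the value was -0.15, and without the 3 libraries the value was -0.68.

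Hyou1, the large HSP70-like protein that acts on BiP, stood at 459, 422 and 454 CPM in the control under DOX alone and at 265, 214 and 251 with activin B. In sh1/2 it stood at 347, 359 and 354 and then at 304, 278 and 297 CPM, again without overlap but with its DOX libraries below those of the control. The log2 fold changes were -0.87 ± 0.07 and -0.27 ± 0.07.

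In the mean of the batch 1 lines the other chaperones fell by less. Manf, a secreted ER stress factor, fell in all 5 lines (between -0.85 and -0.34), as did the HSP40 cochaperone Dnajb11 (between -0.61 and -0.36). Creld2, another secreted ER stress protein, fell in every line but sh1/2, where it was at -0.18. It fell there too with the GC correction (-0.39, edgeR adjusted p = 2.46e-06) and was at -0.45 without the 3 libraries. The cochaperones Dnajb9, Dnajc3 and Dnajc10 fell in every line but the ALK7-DN-labelled one, where they were at -0.20, -0.21 and -0.18. All 3 were called there too with the GC correction (-0.23, -0.24 and -0.20). Hsp90b1 fell in the ALK7-labelled line (-0.45) and in sh1/2 (-0.51) and was at -0.21 in the control. It was at -0.27 in sh1/2 and -0.27 in the control with the GC correction, and was then called in all 5 lines. Without the 3 libraries it was at -0.32 in the control and at -0.21 in sh1/2. Of the 10 chaperones 9, 10, 6, 9 and 9 fell in the 5 lines, from the control to sh1/2 in the order above, and with the GC correction 10, 10, 10, 10 and 10. The shares of all genes tested ran from 7.62% to 19.1% over the lines, and with the GC correction from 10.7% to 18.2%.

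All 9 disulfide isomerases and thioredoxin-like proteins fell in the control, ALK7-labelled, ALK7-DN-labelled and sh2 lines, and 7 in sh1/2, where Txndc5 was at -0.11 and Erp29 at -0.04. Of all genes tested 19.1% fell in sh1/2 and 7.62% to 12.3% in the other lines. Txndc5 was called in sh1/2 with the GC correction (-0.24, edgeR adjusted p = 9.74e-06) and was at -0.20 without the 3 libraries. Txndc11 lost its call there with the GC correction (-0.13) and was at -0.13 without the 3 libraries. Erp29 was at 0.07 in sh1/2 with the GC correction, which also ended its call in the ALK7-labelled line. It was at -0.28 in sh1/2 without the 3 libraries. Pdia6 (ENSMUSG00000020571, chromosome 12, 17266545 to 17284770, plus strand of GRCm38), an isomerase that also restrains the stress sensors, had the largest mean fall of all members (-1.10 ± 0.04, edgeR adjusted p = 5.71e-18). It stood at 789, 868 and 842 CPM in the control under DOX alone and at 343, 327 and 374 with activin B. In sh2 it went from 749, 770 and 764 to 356, 363 and 373 CPM, and in sh1/2 from 710, 870 and 782 to 499, 508 and 514. The groups were far apart in each line, and the activin B libraries of sh1/2 stood above those of the other lines. The log2 fold changes were -1.26 ± 0.06, -1.40 ± 0.06, -0.97 ± 0.06, -1.06 ± 0.06 and -0.64 ± 0.06.

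Pdia4, an isomerase with several thioredoxin domains, stood at 196, 211 and 203 CPM in the control under DOX alone and at 119, 120 and 127 with activin B. In sh1/2 it went from 248, 246 and 262 to 191, 178 and 185 CPM. It fell in both lines, and in each treatment the libraries of sh1/2 were above those of the control. Its log2 fold changes were -0.74 ± 0.05, -0.82 ± 0.05, -0.58 ± 0.05, -0.57 ± 0.05 and -0.45 ± 0.05. P4hb, the founding member of the family, went from 1211, 1173 and 1223 to 832, 772 and 832 CPM in the control (-0.57 ± 0.04), and the groups did not overlap in any line.

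Pdia3, which serves the calnexin cycle, fell in all 5 lines (between -0.69 and -0.39), as did Pdia5 (between -0.73 and -0.25), Txndc11 (between -0.59 and -0.16) and Erp44, which retrieves ER proteins from the early secretory pathway (between -0.43 and -0.23).

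In the lectin chaperone cycle, Calr fell in all 5 lines, and the lectin Canx and the glucosyltransferase Uggt1, which sends unfolded glycoproteins back into the cycle, in the ALK7-labelled and sh1/2 lines. Calr went from 1872, 2014 and 2026 to 1336, 1317 and 1398 CPM in the control (-0.55 ± 0.07, edgeR adjusted p = 6.24e-07). Canx went from 1312, 1295 and 1362 to 1063, 1213 and 1154 CPM there (-0.21 ± 0.08, edgeR adjusted p = 0.0754), a difference that did not pass although the groups did not overlap. Canx passed in all 5 lines with the GC correction (-0.26 in the control, edgeR adjusted p = 7.01e-04), while in sh1/2 it was at -0.12 without the 3 libraries. Uggt1 stood at 390, 393 and 400 CPM in the control under DOX alone and at 368, 359 and 348 with activin B, and in sh1/2 at 519, 431 and 521 and then at 443, 407 and 418. The groups overlapped in sh1/2 and were apart in the control. Its log2 fold changes were -0.14 ± 0.06, -0.25 ± 0.06, -0.08 ± 0.06, 0.01 ± 0.06 and -0.21 ± 0.06. It passed in the control with the GC correction (-0.16, edgeR adjusted p = 0.0332), and in sh1/2 its value was -0.02 without the 3 libraries.

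At the entry gate, the signal peptidase subunits Spcs2 and Spcs3 and the translocon-associated proteins Ssr1 and Ssr3 fell in all 5 lines. Spcs2 stood at 217, 226 and 217 CPM in the control under DOX alone and at 161, 179 and 162 with activin B, and Spcs3 at 289, 283 and 284 and then at 209, 243 and 213. Control activin B replicate 2 was the highest of its group for both genes, without reaching the DOX libraries. Their log2 fold changes were -0.40 ± 0.06, -0.61 ± 0.06, -0.32 ± 0.06, -0.37 ± 0.06 and -0.45 ± 0.06 for Spcs2 and -0.37 ± 0.07, -0.61 ± 0.07, -0.24 ± 0.07, -0.30 ± 0.07 and -0.44 ± 0.07 for Spcs3. In sh1/2 Spcs3 was at -0.16 without the 3 libraries, and in the ALK7-DN-labelled line its call was lost in 4 of the fits that left out a library. Sec61a1, the channel subunit, fell in every line but sh1/2 (-0.51 in the control, 0.07 in sh1/2), and the small subunit Sec61b in the control by the test within each line (-0.58). In sh1/2 the GC correction moved Sec61a1 to -0.11 and Sec61b from 0.14 to -0.13, and with it Sec61b was called in the control, ALK7-labelled and sh2 lines.

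ER-associated degradation was a mixed group. Of its 10 members 7, 6, 4, 6 and 5 fell in the 5 lines in that order, with medians of -0.26, -0.16, -0.21, -0.24 and -0.09. Of all genes tested 9.66%, 12.3%, 7.62%, 8.91% and 19.1% fell. The counts were 8, 9, 7, 7 and 5 with the GC correction. Derl3, a derlin that helps to draw misfolded proteins out of the ER, stood at 7.36, 5.58 and 5.66 CPM in the control under DOX alone and at 2.85, 1.59 and 2.37 with activin B. In sh1/2 it stood at 4.05, 6.57 and 3.85 and then at 4.88, 4.24 and 4.68 CPM. The groups were apart in the control and overlapped in sh1/2, where DOX replicate 2 alone was high. The log2 fold changes were -1.43 ± 0.21, -1.24 ± 0.20, -1.02 ± 0.20, -0.89 ± 0.20 and -0.08 ± 0.20. In sh1/2 it was 0.22 without DOX replicate 2 and -0.38 with the GC correction (edgeR adjusted p = 0.0449).

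Edem1, which hands misfolded glycoproteins to degradation, went from 129, 129 and 128 to 98.3, 97.6 and 99.1 CPM in the control and from 153, 119 and 150 to 114, 105 and 105 in sh1/2. It fell in all 5 lines (-0.39 ± 0.06, -0.48 ± 0.06, -0.34 ± 0.06, -0.27 ± 0.06 and -0.38 ± 0.06), and its value in sh1/2 was -0.14 without the 3 libraries.

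Of the other derlins, Derl2 fell in all 5 lines (between -0.49 and -0.20) and Derl1 in every line but the ALK7-DN-labelled one (between -0.22 and -0.08). Derl1 lost its call in sh1/2 with the GC correction (-0.10). The mannosidase-like Edem2 fell in every line but sh1/2 (-0.06), and there too with the GC correction (-0.22, edgeR adjusted p = 7.52e-04). Edem3 was called in sh1/2 (-0.31), a call that was lost with the GC correction (-0.11, edgeR adjusted p = 0.143). Without the 3 libraries it was at -0.01 there. The ubiquitin ligase Syvn1 was called lower in the control (between -0.49 and 0.25 over the lines), and with the GC correction in every line but sh1/2, where it went from 0.25 to -0.04. Its adaptor Sel1l was called lower in the ALK7-labelled and sh1/2 lines (between -0.14 and 0.01). With the GC correction it was called in the control (edgeR adjusted p = 0.0106), ALK7-labelled and ALK7-DN-labelled lines, and in sh1/2 it was at -0.07 (edgeR adjusted p = 0.193). The lectin Os9 was called in the control and sh2 (between -0.30 and 0.11), and with the GC correction in all 5 lines, going from 0.11 to -0.19 in sh1/2 (edgeR adjusted p = 0.00984). Herpud1, a stress-induced scaffold whose window holds ERSE-II, lay between -0.14 and 0.13 and passed in no line, and with the GC correction in the ALK7-labelled one (-0.21).

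Xbp1, whose spliced form is the active transcription factor, stood at 192, 207 and 199 CPM in the control under DOX alone and at 148, 168 and 159 with activin B. The groups did not overlap in any line, and it fell in all 5 (-0.33 ± 0.05, -0.51 ± 0.05, -0.26 ± 0.05, -0.33 ± 0.05 and -0.31 ± 0.05). Counts per gene do not separate the spliced from the unspliced form. Atf6 went from 121, 127 and 125 to 109, 112 and 111 CPM in the control, without overlap, and was called lower in the control, ALK7-labelled and sh1/2 lines (-0.17 ± 0.06, -0.32 ± 0.06, -0.13 ± 0.06, -0.08 ± 0.06 and -0.22 ± 0.06 over the 5 lines). Its call in the control was lost with the alternative size factors, without the low-count filter, with only 2 groups fitted and without any single library of the line. In sh1/2 its value was -0.05 without the 3 libraries. Atf6 was called in every line but sh1/2 with the GC correction (-0.09). Atf6b was called lower in the control (-0.66) and sh2 (-0.61) and was at 0.30 in sh1/2. It was called lower in all 5 lines with the GC correction, at -0.13 in sh1/2 (edgeR adjusted p = 0.0244).

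Ern1 (ENSMUSG00000020715, chromosome 11, 106394650 to 106487852, minus strand of GRCm38), which encodes the kinase and ribonuclease IRE1 that splices Xbp1, went the other way. It stood at 102, 99.3 and 102 CPM in the control under DOX alone and at 132, 122 and 123 with activin B. In sh2 it went from 95.6, 108 and 108 to 143, 132 and 137 CPM, and in sh1/2 from 149, 135 and 143 to 177, 161 and 166. The groups did not overlap in any line, and the DOX libraries of sh1/2 were already above the activin B libraries of the control. The log2 fold changes were 0.31 ± 0.05, 0.22 ± 0.05, 0.21 ± 0.05, 0.40 ± 0.05 and 0.24 ± 0.05 (edgeR adjusted p = 8.57e-05 in the control, 0.0017 in sh1/2 and 0.0696 there with only its 2 groups fitted).

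In sh1/2 a fit with the replicate number as a block called 4 members higher and 30 lower (23.9% and 23.6% of all genes tested). Besides Ern1 the former were Syvn1 (0.27), Herpud1 (0.14) and Atf6b (0.34), which were at -0.04, -0.01 and -0.13 with the GC correction. In the control the block fit added calls for Hsp90b1 (-0.22, edgeR adjusted p = 0.02), Canx (-0.21, edgeR adjusted p = 0.0129) and Uggt1 (-0.14, edgeR adjusted p = 0.031), all lower. The count of members that fell in sh1/2 was 17 without the 3 libraries (4.01% of all genes tested; 5.09% rose) and 15 with only the 2 groups of the line fitted (4.89%). The calls lost without the 3 libraries were those of Hsp90b1, Dnajb9, Dnajc3, Dnajc10, Pdia3, Txndc11, Canx, Uggt1, Ssr1, Spcs3, Sel1l, Derl1, Derl2, Edem1, Edem3 and Atf6. Without sh1/2 DOX replicate 2, 6 members were called higher and 29 lower (26.1% and 25.9% of all genes tested). In sh1/2 7 members changed sign with the GC correction: Erp29, Sec61a1, Sec61b, Syvn1, Herpud1, Os9 and Atf6b. Hspa5 was at -0.45 without the 3 libraries and Pdia6 at -0.77.

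**Figure D2:**
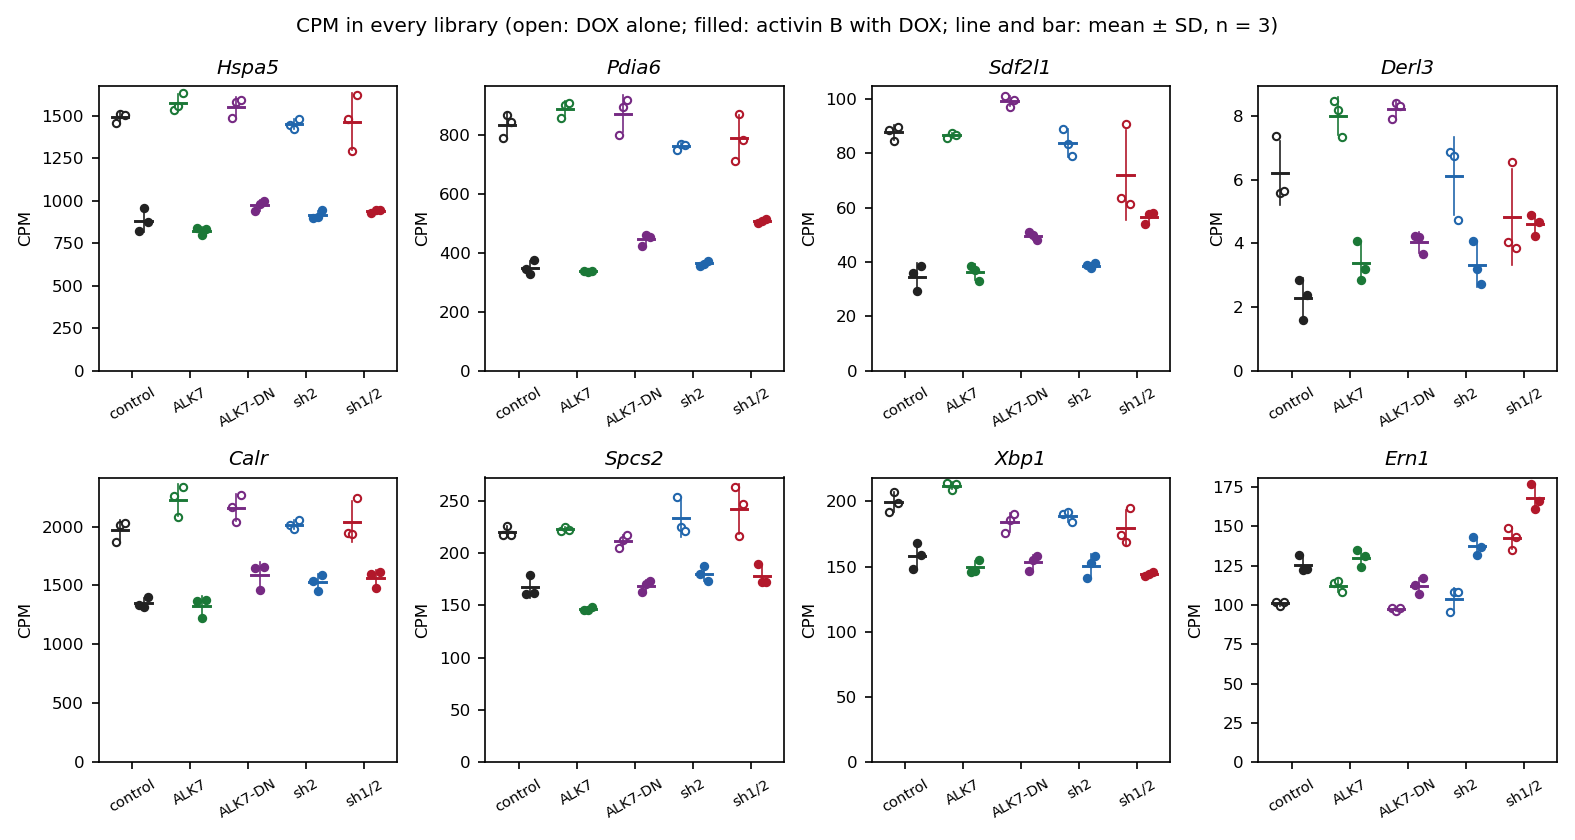
CPM of selected members (one panel each, linear axis from 0) in every library of the 5 lines, for DOX alone and with activin B, with the mean and SD of 3 libraries. Hspa5 and Pdia6 are lower and Ern1 is higher with activin B in each line, and the libraries of Derl3 overlap in sh1/2.

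**Figure D3:**
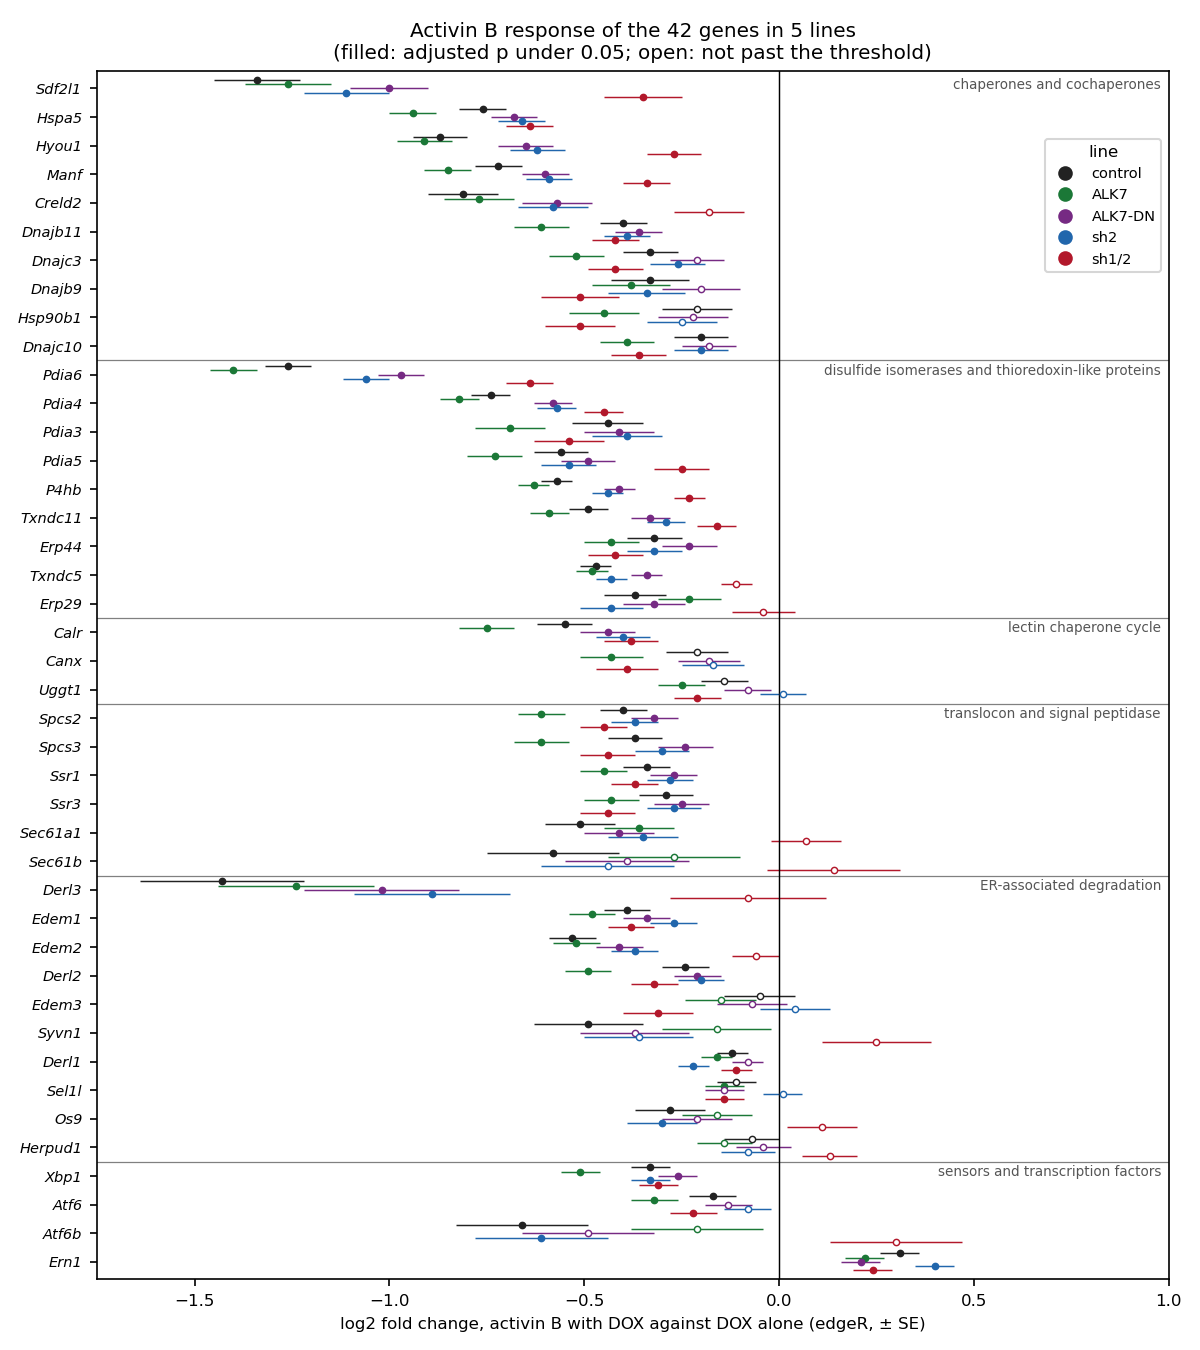
Log2 fold change with activin B for each of the 42 genes (rows, by role) in the 5 lines (colours), with bars for the SE and filled points where the adjusted p is under 0.05. Ern1 lies above 0 in all lines, and for Sdf2l1 and Derl3 the point of sh1/2 (-0.35 and -0.08) lies nearest to 0.

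The next comparison is whether a line responded otherwise than the control, tested as the difference of the 2 responses in one model. These differences share the 6 control libraries. In the line labelled ALK7 edgeR called 0 of 42 members (0.0256% of all genes tested), with 7 at an unadjusted p under 0.05 and 0 by DESeq2. In the line labelled ALK7-DN edgeR called 0 (0%), with 7 at an unadjusted p under 0.05 and 0 by DESeq2, and in sh2 edgeR called 0 (0.0128%), with 5 at an unadjusted p under 0.05 and 0 by DESeq2. The difference of Pdia6 from its response in the control was -0.14 ± 0.09, 0.29 ± 0.09 and 0.20 ± 0.09 in these lines, and that of Hspa5 -0.18 ± 0.09, 0.08 ± 0.09 and 0.09 ± 0.09. A missed call does not show that the lines responded alike, and in the ALK7-DN-labelled and sh2 lines batch enters the difference.

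In sh1/2, 18 members had a response above that of the control and 0 one below it (8.49% and 9.22% of all genes tested), so that they fell by less or not at all. They were 4 chaperones (Sdf2l1 0.99 ± 0.15, Creld2 0.63, Hyou1 0.60 ± 0.10, Manf 0.38) and 7 isomerases and thioredoxin-like proteins (Pdia6 0.62 ± 0.09, Txndc5 0.36, P4hb 0.33, Txndc11 0.33, Erp29 0.33, Pdia5 0.31, Pdia4 0.29). The others were the translocon subunits Sec61b (0.72) and Sec61a1 (0.58), the degradation genes Derl3 (1.35 ± 0.29), Syvn1 (0.74), Edem2 (0.47) and Os9 (0.40), and Atf6b (0.96). The difference of Hspa5 was 0.12 ± 0.09 (edgeR adjusted p = 0.325) and that of Xbp1 0.02 ± 0.08.

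This difference moved with GC content: across all genes tested its Spearman correlation with the GC content of the longest transcript was 0.66, a description over genes that share these libraries. The 21 members with the lower GC content (40.2% to 48.9%) had a median difference of -0.07 and 4 calls, and the 21 with the higher (49.1% to 60.3%) a median of 0.38 and 14 calls. With a correction for GC content the medians were 0.16 and 0.22 and the calls 9 and 10. That fit called 19 members higher and 0 lower, 14 of them among the 18 (3% of all genes tested higher, 2.82% lower). Pdia6 was then at 0.67 (edgeR adjusted p = 3.98e-05), Sdf2l1 at 0.61 (edgeR adjusted p = 2.01e-05), Derl3 at 0.96 and Atf6b, the member richest in G and C, at 0.36.

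Without the 3 libraries, with sh1/2 DOX replicate 2 alone in its group, most calls of the difference were lost, among all genes tested as well as among the members. Sdf2l1 was then at 0.55, Pdia6 at 0.44 and Hspa5 at 0.37. With only the 4 groups fitted, the calls were Pdia6 and Hyou1 (edgeR adjusted p = 0.0471 each; 0.092% of all genes tested higher), and Sdf2l1 had an edgeR adjusted p of 0.0645. The fits that left out 1 library called 11 members higher without control activin B replicate 2 (0.72% of all genes tested), 11 without sh1/2 DOX replicate 1 (0.651%), 12 without control DOX replicate 1 (0.796%) and 12 without sh1/2 DOX replicate 3 (0.726%). Without sh1/2 DOX replicate 2, 19 were called higher and 9 lower (21.8% and 22.3%). Pdia6 and Sdf2l1 were among the members called higher both with all libraries and with the GC correction. Their values without the 3 libraries rest on 1 DOX library of sh1/2.

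**Figure D4:**
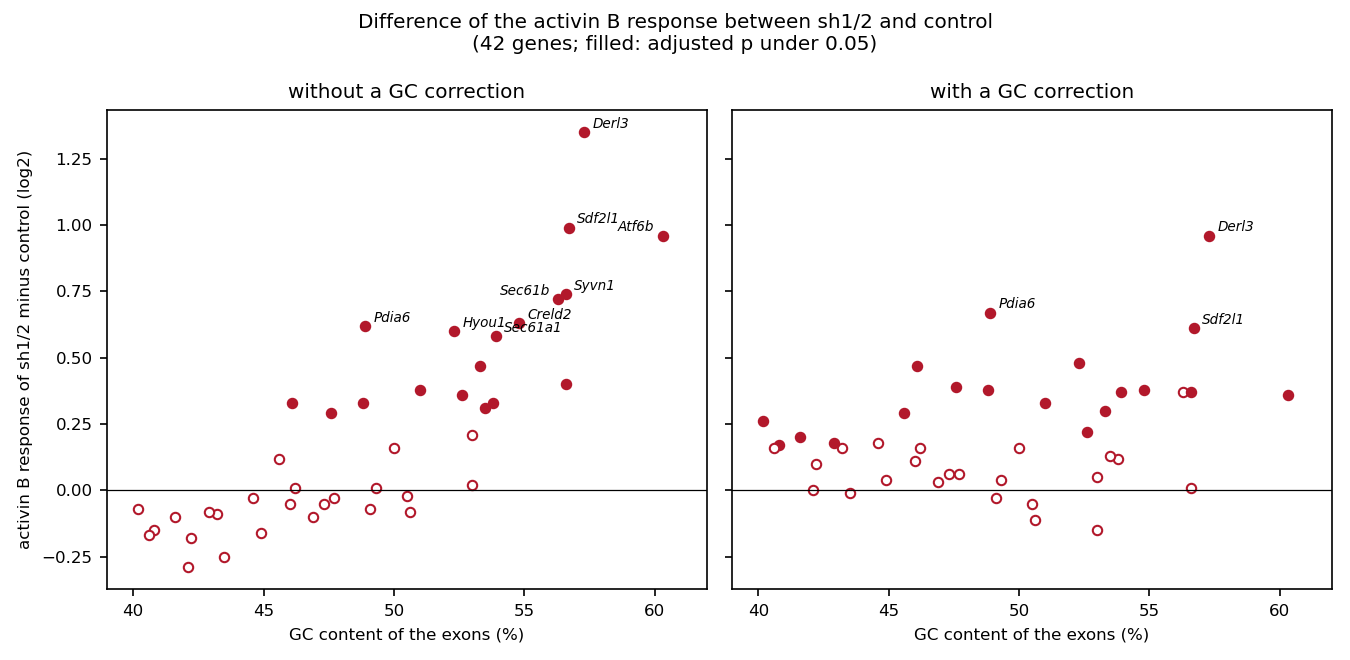
Difference of the activin B response of sh1/2 from that of the control (log2, vertical axis) against GC content (%, horizontal axis) for the 42 genes, without and with a correction for GC content, filled where the adjusted p is under 0.05. GC content is that of the longest transcript, although the axis names the exons. Without the correction the 21 genes with the higher GC content have a median of 0.38 against -0.07 for the other 21, and with it 0.22 against 0.16.

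The lines were also compared with the control within a treatment, where both groups were of batch 1. Under DOX alone edgeR called 0 of 42 members in the line labelled ALK7 (1.98% of all genes tested; 5 at an unadjusted p under 0.05, and 1 by DESeq2, Pdia4). In the line labelled ALK7-DN edgeR called 0 (0.966%; 7 at an unadjusted p under 0.05, and 0 by DESeq2). In sh1/2, 8 members were above the control (19.0% of the members, 19.4% of all genes tested) and 14 below it (33.3% and 18.6%), so the share above was near the background. Above were the chaperones Hsp90b1, Dnajb9 and Dnajb11, the isomerase family members Pdia3, Pdia4 (0.31 ± 0.05) and Erp29, Uggt1 (0.31 ± 0.06) and Ern1 (0.49 ± 0.05, edgeR adjusted p = 1.23e-07). Below were Hyou1 (-0.33), Sdf2l1, P4hb, Pdia5, Txndc5, Txndc11, Sec61a1, Sec61b (-0.70), Derl1, Derl2, Herpud1, Edem2, Os9 and Xbp1. With only the 2 groups fitted 2 were above and 3 below (8.19% and 8.49% of all genes tested), and the call of Uggt1 was lost. Without the 3 libraries, with sh1/2 DOX replicate 2 alone in its group, calls changed too, and Uggt1 was at 0.12. Of the 14 members below, 12 were among the 21 with the higher GC content. With the GC correction 6 members were above and 15 below (20.6% and 20.5% of all genes tested), 6 and 9 of them the same. The calls lost were those of Dnajb9, Sdf2l1, P4hb, Pdia5, Erp29, Os9 and Xbp1, and those gained, all below, were of Hspa5, Dnajc3, Canx, Ssr1, Spcs3 and Edem3.

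With activin B the line labelled ALK7 differed from the control in 0 members by edgeR (4.53% of all genes tested), with 11 at an unadjusted p under 0.05 and 1 by DESeq2 (Spcs2). In sh2 edgeR called 2 members above the control and 0 below (3.06% of all genes tested higher, 6.18% lower). Pdia4 stood at 145, 143 and 141 CPM against 119, 120 and 127 in the control (0.23 ± 0.05, edgeR adjusted p = 0.00283), and P4hb at 927, 869 and 895 against 832, 772 and 832 (0.14 ± 0.04, edgeR adjusted p = 0.0346). The libraries did not overlap for either gene. P4hb missed the threshold in 9 of the alternative fits, among them the one without the 3 libraries and that without control activin B replicate 2, and Pdia4 missed it with only the 2 groups fitted.

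In sh1/2 with activin B 17 members were above the control (40.5% of the members, 16.9% of all genes tested) and 6 below it (14.3% and 18.3%). The smallest p-values belonged to Pdia4 (0.60 ± 0.05, edgeR adjusted p = 1.12e-09), Pdia6 (0.54 ± 0.06, edgeR adjusted p = 2.60e-07) and Ern1 (0.41 ± 0.05, edgeR adjusted p = 1.44e-06). Derl3 had the largest value (1.00 ± 0.21). Below were Dnajc3, Canx, Spcs3, Derl1, Derl2 and Edem3, and 2 members were below and 14 above when control activin B replicate 2 was left out (14.9% and 11.5% of all genes tested). Calls were lost with the GC correction for Dnajc3, P4hb, Txndc5 and Spcs3. It also added calls above the control for Hspa5 (0.18), Hsp90b1, Dnajb9, Pdia3 (0.29), Txndc11, Erp44, Ssr3, Spcs2, Sel1l and Edem1. Below the control it added Herpud1 and Xbp1.

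The surroundings of these genes were described with 7 further lists of 142 ER genes, of which 136 were tested. These lists too were chosen with earlier results of these data known. As a mean of the batch 1 lines 78 fell and 11 rose, with a median log2 fold change of -0.15 against -0.39 for the 42 members. Of all genes tested 19.7% fell and 19.4% rose in that mean, the background of its counts below. Among genes of N-glycosylation 13 of 19 fell and 0 rose, with Ostc (-0.57 ± 0.04) and Rpn1 (-0.44 ± 0.03), subunits of the oligosaccharyltransferase. Of genes for export to the Golgi 19 of 25 fell and 0 rose, with the cargo receptors Surf4 (-0.60 ± 0.03) and Tmed10 (-0.25 ± 0.02). Of genes for translocation 12 of 17 fell and 0 rose, with Srpr, a receptor for the signal recognition particle (-0.30 ± 0.03), and Ssr4 (-0.62 ± 0.05).

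Of genes for oxidative folding 14 of 27 fell and 2 rose, with the oxidase Ero1b (-0.64 ± 0.04) and the prolyl isomerase Fkbp11 (-0.71 ± 0.06). Within the single lines 22.2% to 25.9% of them fell, beside 7.62% to 19.1% of all genes tested. In sh1/2 these shares were 25.9% and 19.1%, on few genes. Of other genes of ER-associated degradation 14 of 26 fell and 3 rose, with Selenos lower (-0.61 ± 0.04) and Svip, an inhibitor of this pathway, higher (0.67 ± 0.05). Within the lines, from the control to sh1/2, 19.2%, 38.5%, 7.69%, 11.5% and 53.8% of this list fell. The shares of all genes tested were 9.66%, 12.3%, 7.62%, 8.91% and 19.1%, so the list was near them in the ALK7-DN-labelled and sh2 lines. In the arm of PERK and ATF4 3 of 12 fell (25%) and 4 rose (33.3%), with a median of 0.03. These shares rest on few genes and lie near the 19.7% and 19.4% of all genes tested. Among those that fell were the asparagine synthetase Asns (-0.30 ± 0.03) and Vldlr (-0.31 ± 0.04). Those that rose were Sesn2 (0.51 ± 0.07), Atf3 (0.37 ± 0.08), Chac1 (0.30 ± 0.10) and Ddit4 (0.18 ± 0.06). Of the other sensors and ER-bound factors 3 of 10 fell and 2 rose, again few genes, with Bhlha15, a transcription factor of secretory cells, at -0.51 ± 0.07 and the PERK gene Eif2ak3 at 0.16 ± 0.03. Ins1, a main cargo of the machinery in these cells, went from 3676, 3265 and 3326 to 2420, 1746 and 2160 CPM in the control and from 2391, 2954 and 2350 to 2088, 2180 and 2260 in sh1/2. Its log2 fold change was -0.70 ± 0.11 in the control and -0.24 ± 0.11 in sh1/2 (edgeR adjusted p = 2.60e-05 and 0.0853). That of Ins2 was -0.94 ± 0.17 and -0.14 ± 0.16 (edgeR adjusted p = 1.40e-04 and 0.525). Both genes were called lower in every line but sh1/2. The part of these changes in that of the machinery was not tested.

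**Figure D5:**
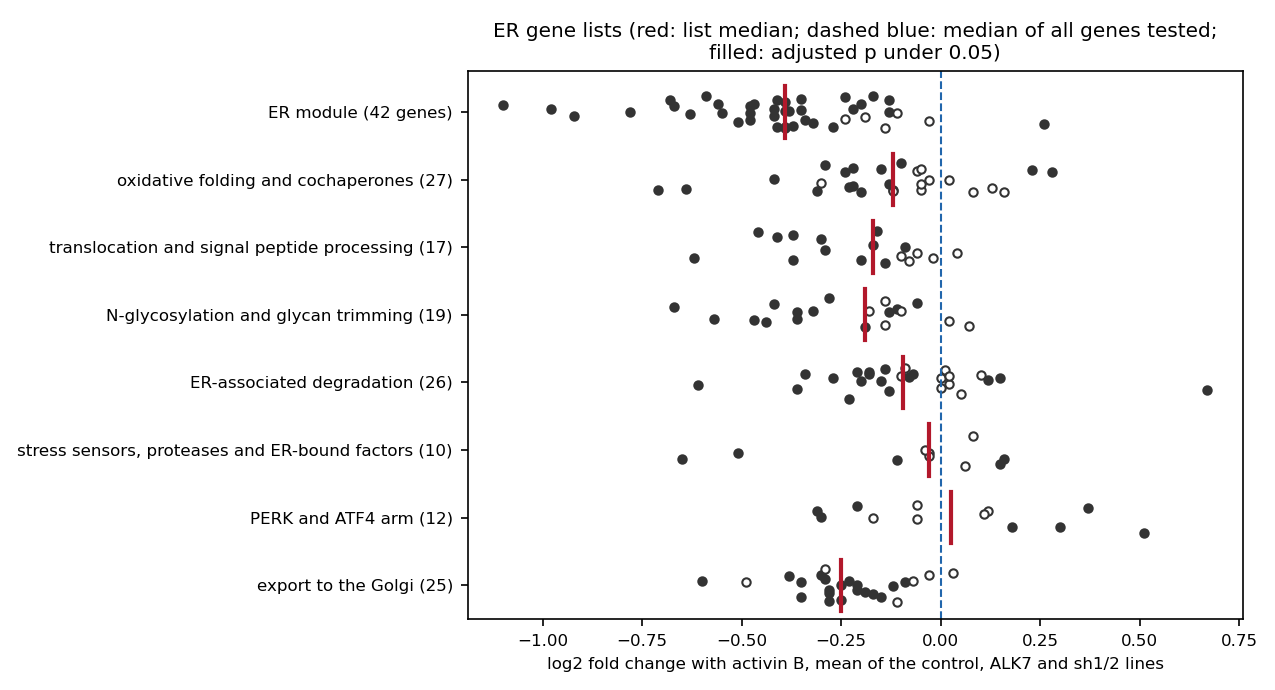
Log2 fold change with activin B, as a mean of the control, ALK7-labelled and sh1/2 lines, for each tested gene of the 42 members and of 7 other ER lists (rows), filled where the adjusted p is under 0.05. The members have a median of -0.39, export to the Golgi one of -0.25 and the arm of PERK and ATF4 one of 0.03.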

How the data were processed

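Per the submitters' processing notes, reads were handled with bcl2fastq 2.17, cutadapt 1.4.2, HISAT2 and featureCounts 1.4.4 against mm10, and edgeR was used. The HISAT2 version, strand setting and treatment of multiply mapped reads are not given in the sources used here, so overlapping genes may share reads. The authors deposited raw read counts per gene, which were used as deposited; 0 count columns were without a sample. Counts were tested in R 4.3.3 with edgeR 4.0.16 (quasi-likelihood F test, filterByExpr, TMM scaling, 10 group means over all 30 libraries, Benjamini-Hochberg adjustment over 15627 genes, threshold 0.05), after a check on simulated data. The SE is the absolute log2 fold change over the square root of F, and CPM use the TMM-scaled library sizes. Alternatives were other size factors, DESeq2 1.42.0, no low-count filter, fewer groups, a replicate block, a correction for the GC content of the longest transcript (98.9% of genes had a value), a batch term, leaving out each library, and leaving out 3 libraries. Replicate numbers come from the labels. The correlations of same-numbered deviations all exceeded 0.1 in the ALK7-labelled line (0.21, 0.11 and 0.12) and in sh1/2 (0.32, 0.23 and 0.13). They were 0.31, 0.26 and 0.08 in the control, 0.33, 0.1 and 0.18 in the ALK7-DN-labelled line and 0.23, 0.09 and 0.19 in sh2. In every line each library correlated best with its own number. No 2 replicates agreed within sampling noise (lowest chi-square per degree of freedom 8.25). The members and gene lists were chosen with earlier results of these data known. Given with every library of at least 1 line were Hspa5, Pdia6, Xbp1, Atf6, Ern1, the 2 members of each role with the largest mean change among those called, and up to 3 called members with the smallest p per line comparison. Of each other ER list the 2 called genes with the smallest p are named, and for the arm of PERK and ATF4 those that rose as well.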

Additional observations from a re-analysis of the deposited data

Results flagged for a closer look

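In sh1/2, 18 members had a response to activin B that differed from that of the control by a test of the difference itself (edgeR, adjusted over all genes). The differences, as log2 response of sh1/2 minus that of the control, were 0.62 for Pdia6, 0.99 for Sdf2l1, 0.60 for Hyou1, 0.36 for Txndc5, 0.33 for P4hb, 0.47 for Edem2, 0.63 for Creld2, 0.38 for Manf and 1.35 for Derl3. They were 0.58 for Sec61a1, 0.33 for Txndc11, 0.29 for Pdia4, 0.96 for Atf6b, 0.74 for Syvn1, 0.31 for Pdia5, 0.40 for Os9, 0.72 for Sec61b and 0.33 for Erp29. All 18 lie above 0, and all rest on the same 12 libraries of sh1/2 and the control, so they are not independent of each other. With the GC correction 14 of the 18 were still called, and P4hb (0.12), Pdia5 (0.13), Os9 (0.01) and Sec61b (0.37) were not. Without the 3 libraries with fewer reads on GC-rich genes, most calls were lost, among all genes tested as well as among the members. Which calls were kept there is thus not a result about the members. That fit leaves sh1/2 under DOX alone with replicate 2 only.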

How the results depend on the processing

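All alternatives were planned except the omission of the 3 libraries, which was added after the data were seen. Counts of called members, higher and lower together, are as follows, and the cause of each change was not tested. The share of all genes called changed with the fit too, so a changed count is not a result about the members. For the sh1/2 difference the share called higher was 0.092% with only its 4 groups fitted and 21.8% without sh1/2 DOX replicate 2. The fall in sh1/2 had 15 calls, all lower, with only its 2 groups fitted. The sh1/2 difference had 2 with only its 4 groups fitted and 11 to 28 when each replicate was left out. The counts of both comparisons also dropped by more than 1.5 times without the 3 libraries, where DOX replicate 2 of sh1/2 was alone in its group. In sh2 the difference had 1 call (Hyou1) with the GC correction and replicate block, and 18 with a batch term, which assumes that sh2 and sh1/2 respond alike and so returns the sh1/2 result. The ALK7-labelled difference had 2 with the GC correction and replicate block. Under DOX alone the ALK7-labelled line had 1 by DESeq2, 2 with the replicate block, 3 with the GC correction and 9 with both, the ALK7-DN-labelled line 2 with the GC correction and 2 with both, and sh1/2 5 with only the 2 groups fitted. With activin B the ALK7-labelled line had 1 by DESeq2, 1 with the replicate block, 2 with the GC correction, 8 with both and 0 to 1 when each replicate was left out. With activin B sh2 had 1 with the alternative size factors, 1 without the low-count filter, 0 with only the 2 groups fitted, 6 with the GC correction, 17 with this and the block, 1 without the 3 libraries and 1 to 2 when each replicate was left out. The other counts stayed within 1.5 times. Of the members named by the rule under processing, 8 values changed sign: with the batch term Atf6 (0.00), Canx (0.04) and Uggt1 (0.15) in the ALK7-DN-labelled line and Uggt1 (-0.21) in sh2; Uggt1 in sh2 with the GC correction (-0.00), with this and the block (-0.00) and without sh2 activin B replicate 1 (-0.00); and Derl3 in sh1/2 without DOX replicate 2 (0.22). Other members changed sign too, 7 of them in sh1/2 with the GC correction. Another 1628 values of the members named by the rule kept direction and call, 51 lost the call and 21 gained it. Same-numbered libraries correlated over 0.1 in 12 of 15 pairs, and each library correlated best with its own number in 15 of 15, a hint from the data and not the design.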
